A study of Homo sapiens with 6 samples.

Results

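The clustered protocadherin genes were taken as the protein-coding genes whose GENCODE symbol is PCDHA, PCDHAC, PCDHB, PCDHGA, PCDHGB or PCDHGC followed by a number. This rule used no expression value and gave 53 of the 60675 gene identifiers in the count files, with 15 genes in the alpha cluster, 16 in the beta cluster and 22 in the gamma cluster. All 53 lie on the plus strand of chromosome 5, between positions 140786136 and 141512977 of GRCh38. They were measured by RNA sequencing, after depletion of ribosomal RNA, in MDA-MB-231, a mesenchymal-like line from a triple-negative breast cancer. The study compared 3 wells given 100 μM vitamin C, as sodium ascorbate, for 3 days with 3 control wells without it, to ask how vitamin C alters the transcriptome of these cells. No genetic change of the cells is described for either group, and every value below comes from this one line in culture.

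Clustered protocadherins are cell surface proteins of the cadherin superfamily that bind copies of themselves on neighbouring cells, and they are best known from neurons, where each cell uses its own combination of them to tell its branches from those of other cells. Each alpha and gamma gene consists of its own variable exon with its own promoter, which is spliced to constant exons shared by the whole cluster, whereas each beta protein comes from its own exon alone and lacks the shared cytoplasmic end. The choice of promoter is linked to DNA methylation and to looping by CTCF and cohesin at sites that include a conserved element with the core CGCT, and methylation over these clusters has been described in several cancers. Vitamin C is a cofactor of the TET enzymes, which oxidize methylated cytosine in DNA, but DNA methylation itself was not analysed here.

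The promoter element was examined first, because most of the members share a form of it. RefSeq promoter windows (GRCh38.p14, 250 bases before to 50 bases after the start) were matched for 47 of the 53 genes. CGCT, read on either strand, occurred in 46 of these 47 windows (97.9%) and in 69.4% of all 27305 promoter windows of the same length, so that these 4 letters alone are common. Longer words set the clusters apart from most promoters. The 8-letter word found in the most windows of a cluster was GTGGCGCT in the beta cluster (13 of 14 windows, 1.18% of all promoters), ATGTCGCT in the alpha cluster (9 of 13 windows, 0.245% of all promoters) and GCCGCTGT in the gamma cluster (11 of 20 windows, 1.60% of all promoters). In the beta and alpha clusters 1 other word, shifted by 1 base, was found in as many windows. The words were picked for being frequent in the members, so their shares are a description. All 3 contain CGCT and overlap it, and all matches were on the strand of the gene. The word lay 1 to 83 bases before the start in beta genes (median 65), 42 to 85 in alpha genes (median 52) and 42 to 97 in gamma genes (median 67). A match of letters does not show that a factor binds there.

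The sequences below show the word in capitals with 10 bases on each side, 5′ to 3′ on the plus strand, for genes that were expressed and genes with next to no counts. PCDHB13 (chr5:141213867-141213894) and PCDHB14 (chr5:141223265-141223292) were the beta genes with the highest levels, whereas PCDHB3 (chr5:141100395-141100422) and PCDHB4 (chr5:141121725-141121752) were nearly silent. PCDHA4 (chr5:140806981-140807008) and PCDHA7 (chr5:140834174-140834201) stand for the alpha cluster. PCDHGB1 (chr5:141350029-141350056), PCDHGC3 (chr5:141475884-141475911) and PCDHGA8 (chr5:141392572-141392599) stand for the gamma cluster.
PCDHB13: aggacgcgtgGTGGCGCTgcaggataag
PCDHB14: gagacacatgGTGGCGCTacaggataag
PCDHB3: cgaacgcatgGTGGCGCTgttgactaag
PCDHB4: aagacgcaggGTGGCGCTgcaggctaag
PCDHA4: gagccacatgATGTCGCTctttaccaca
PCDHA7: tggccacatgATGTCGCTctttaccgca
PCDHGB1: acctctgggcGCCGCTGTcgaccaaaag
PCDHGC3: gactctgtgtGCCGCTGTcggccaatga
PCDHGA8: gactgtaagcGCCGCTGTtcacctactg
Expressed and nearly silent genes carried the same word. In the beta cluster it was present in all 7 matched genes that had enough counts for a test and in 6 of the 7 that had not, the exception being PCDHB1, a gene that stands apart from the other beta genes at the start of that cluster. In the gamma cluster it was present in 9 of 15 tested and 2 of 5 untested genes. PCDHGB2, the gamma gene with the highest level, lacked this exact word within its window but held the close variant GTCGCTGT, which also contains CGCT. That variant was found in 6 of 20 gamma windows and in 0.711% of all promoters, so lacking the word does not mean lacking the element.

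CpG dinucleotides, the sites of DNA methylation, numbered 2 to 27 in the 47 member windows (median 7), against a median of 14 over all promoter windows. The CpG-rich windows of the members belonged mostly to C-type genes, the members at the end of the alpha and gamma clusters, with 27 in PCDHAC1, 23 in PCDHGC4, 18 in PCDHGC3 and 15 in PCDHAC2, although PCDHGB6, a gamma B gene, had 16. In the beta cluster the windows of tested genes held 5 to 10 CpGs (median 8) and those of untested genes 6 to 12 (median 6), while in the gamma cluster the windows of tested genes held 2 to 18 (median 7) and those of untested genes 4 to 23 (median 12). These ranges overlapped in both clusters.

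Reads counted in genes numbered 13434130 to 19553914 in the vitamin C libraries and 17664345 to 22373591 in the control libraries. Levels are CPM, counts scaled by TMM (factors 0.972 to 1.02) to a library size of 1000000. Differences are given as log2 fold changes (vitamin C over control) and their standard errors (SE), tested with edgeR's quasi-likelihood test and Benjamini-Hochberg adjustment over all genes tested. Unmapped read pairs made up 24.7% to 49.5% of the vitamin C libraries and 24.2% to 34.4% of the control libraries, and the part of this in the results below was not tested. The methods describe the wells of a group as belonging to one experiment and the experiments as repeated, without saying which the sequenced wells came from, so the spread that the p-values rest on is that between these wells and may be technical. In such bulk RNA, fewer cells that use a gene and less RNA per cell cannot be told apart. Among the markers of the line, VIM was at 1186 to 1311 CPM in vitamin C wells and at 1227 to 1316 CPM in control wells, CD44 and AXL were also abundant, ESR1 was at 0 in every library and ERBB2 was at 38.8 to 50.1 CPM, while SPARC, listed as a high marker, was at most 0.502 CPM. Of the other low markers, PGR had counts only in vitamin C 3 (0.201 CPM), and CDH1 varied between wells from 0.512 to 6.52 CPM.

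The 3 clusters differed in whether they were transcribed at all. The alpha cluster was next to silent, with 16 counts over its 15 genes in all 6 libraries together. Summed alpha levels were 0.148, 0.217 and 0 CPM in vitamin C wells and 0.0569, 0.222 and 0.249 CPM in control wells. These sums overlapped, and no alpha gene had more than 2 counts in any library. PCDHA13, PCDHA7, PCDHA1 and PCDHAC1 had 3 counts each over the 6 libraries, and 8 alpha genes had none, which allows up to 0.0279 CPM each (3 counts of the 107440791 in all libraries, for counting error only). At this depth no difference in the alpha cluster was detectable.

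The beta genes had 3381 counts and the gamma genes 4763. Summed beta levels were 34.4, 33.2 and 38.3 CPM in vitamin C wells, against 27.5, 30.5 and 26.1 CPM in control wells. Gamma sums were 51.5, 47.7 and 45.1 CPM in vitamin C wells and 39.3, 44.2 and 41.1 CPM in control wells. In both clusters every vitamin C well lay above every control well, and the log2 ratio of the group means was 0.33 for beta and 0.21 for gamma. Over all 53 genes the sum was 83.5 ± 2.47 CPM in vitamin C wells and 69.8 ± 4.50 CPM in control wells (SD, n = 3 each). No test is given for these sums, whose size rests mostly on a few abundant members. The most abundant gamma genes gave little of the gamma difference. Mean levels in vitamin C and control wells were 12.66 and 11.95 CPM for PCDHGB2 and 7.50 and 7.29 CPM for PCDHGB1.

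**Figure D1:**
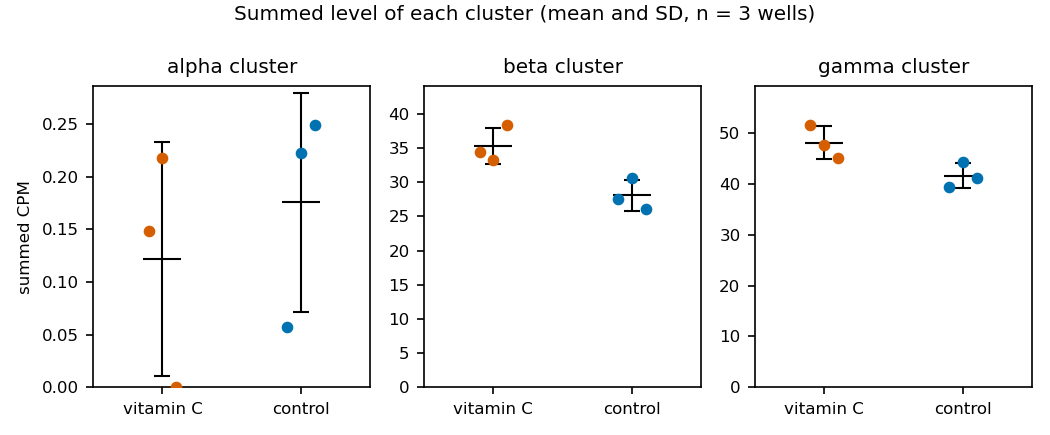
Summed CPM of the alpha, beta and gamma genes in each well, vitamin C left and control right in each panel, with the mean and SD of 3 wells. The beta and gamma sums of the vitamin C wells lie above those of the control wells (lowest vitamin C 33.2 against highest control 30.5 CPM in beta, 45.1 against 44.2 CPM in gamma), and the alpha sums are under 0.25 CPM in all wells.

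Within the active clusters transcription was concentrated in a few neighbouring genes. In the beta cluster the first 7 genes along the chromosome, PCDHB1 to PCDHB7, had 87 counts together (2.57% of the cluster) and none of them reached the count filter. PCDHB8, PCDHB16 and PCDHB9, which follow, had 280 counts (8.28%). The run of 5 genes from PCDHB10 to PCDHB14 held 2969 counts, 87.8% of the cluster. PCDHB15, the last beta gene, had 45 counts.

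The gamma cluster, in which gamma A and gamma B genes alternate before the 3 gamma C genes at the end, followed another pattern. PCDHGB1 and PCDHGB2 alone held 2104 counts, 44.2% of the cluster, while PCDHGA1, PCDHGA2 and PCDHGA3 upstream of them had 225 (4.72%). The 10 gamma A and B genes from PCDHGA7 to PCDHGA12 had 939 (19.7%). By subfamily, the 7 gamma B genes held 2685 counts, the 12 gamma A genes 1656 and the 3 gamma C genes 422, of which 391 were from PCDHGC3.

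To compare genes with each other, CPM was divided by the kilobases of a gene's exons that no other annotated gene covers. The reason is that reads over exons shared between genes are not assigned to one of them, so that the constant exons of the alpha and gamma clusters add length but no counts. Shared exon made up a median of 49.5% of an alpha gene, 43.8% of a gamma gene and 5.32% of a beta gene. PCDHA1 had only 7 bases of its own in this annotation, so its level per kilobase is not given.

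PCDHGB2 had the highest level, 5.82, 3.99 and 4.61 CPM per kb in vitamin C wells and 4.30, 4.73 and 4.57 CPM per kb in control wells. PCDHGB1 followed with 4.03, 3.73 and 3.27 CPM per kb in vitamin C wells and 3.82, 3.92 and 2.97 CPM per kb in control wells. Next came PCDHB13, with 2.70, 2.78 and 3.10 CPM per kb in vitamin C wells and 2.33, 2.33 and 2.17 CPM per kb in control wells. The ranges of PCDHGB2 and PCDHGB1 over the 6 libraries met, as did those of PCDHGB1 and PCDHB13. Within each library, however, PCDHGB2 lay above PCDHGB1 and PCDHGB1 above PCDHB13. Every library of PCDHB13 lay above every library of PCDHB14. PCDHB14, PCDHB11 and PCDHGC3 had means of 1.45, 1.33 and 1.12 CPM per kb over the 6 libraries (SD 0.270, 0.247 and 0.255), and their ranges overlapped. Within each library but control 3, PCDHB14 and PCDHB11 lay above PCDHGC3. The order of PCDHB14 and PCDHB11 varied between libraries. PCDHGB3, PCDHGA4, PCDHGA5 and PCDHGA6 had means of 0.876, 0.787, 0.634 and 0.595 CPM per kb and completed the 10 genes with the highest levels.

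Dividing by total exon length instead put PCDHB13 first and kept 8 of these 10. The order of the 23 members with enough counts for a test was similar in all libraries (Spearman 0.922 to 0.978 between pairs of libraries, across genes, which share a cell line and an annotation). PCDHB13 made up 39.7%, 42.4% and 41.0% of beta counts in vitamin C wells and 42.9%, 38.7% and 42.1% in control wells. PCDHGB2 made up 29.8%, 22.0% and 26.9% of gamma counts in vitamin C wells and 28.8%, 28.2% and 29.3% in control wells. These shares overlapped between the groups. Some members share stretches as long as a read with other genes of the locus, most of all PCDHB8 (22.1% of its words of read length), PCDHB10 (21.5%) and PCDHB13 (12.5%), and their counts are uncertain to that extent.

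**Figure D2:**
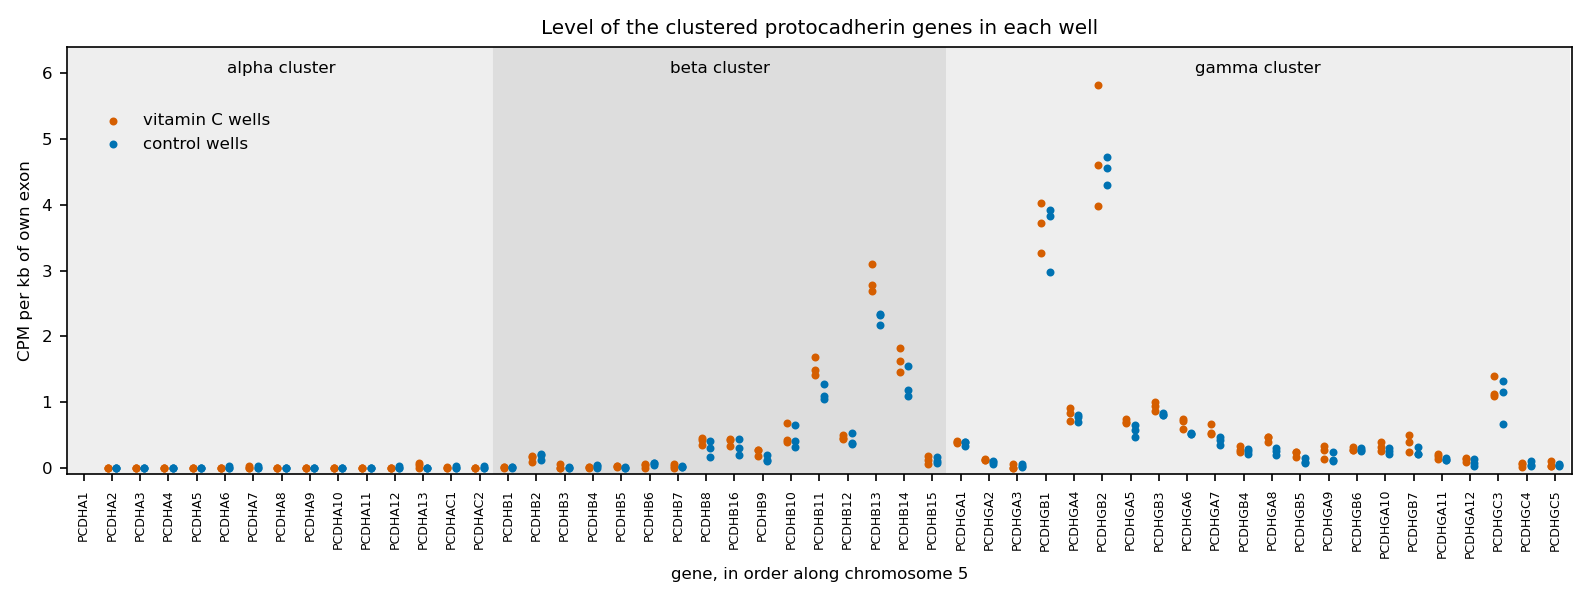
CPM per kb of exon covered by no other gene for each member in its order along chromosome 5, each point 1 well, vitamin C left of control. Levels are near 0 through the alpha cluster and PCDHB1 to PCDHB7, are raised in PCDHB11, PCDHB13 and PCDHB14 and highest in PCDHGB1 and PCDHGB2, and PCDHGC3 (mean 1.12) stands above the other genes near the end of the gamma cluster. PCDHA1 has no point.

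No member passed the test for a difference between vitamin C and control wells. Of the 53 genes, 23 had enough counts to be tested by edgeR (8 beta, 15 gamma and no alpha gene), and 0 were called higher and 0 lower at an adjusted p under 0.05, where 3.6% of all 15261 genes tested were called higher and 3.48% lower. DESeq2 gave 17 of them an adjusted p and called 0 higher and 0 lower, against 4.35% of genes higher and 6.36% lower by that tool. At an unadjusted p under 0.05, edgeR had 5 of the 23 higher, against 14.3% of all genes tested, and 0 lower, against 13.1%. DESeq2 had 2 higher at that level, against 10.8% of the genes it gave an adjusted p, and 0 lower. The smallest adjusted p was 0.072 by edgeR, for PCDHGA8, and 0.161 by DESeq2, for PCDHB13.

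The fold changes nonetheless had the same sign. With TMM, upper-quartile or DESeq2 factors, all 23 tested members had a log2 fold change above 0, against 52.4% of all genes tested with TMM, and their median with TMM was 0.32 (range 0.03 to 0.80) beside 0.02 over all genes tested. By DESeq2 the median was 0.19 over its 17 members and -0.01 over all genes. Genes of low level as a whole leaned the same way, with a median log2 fold change of 0.17 below 1 CPM, 0.13 from 1 to 4 CPM, 0.04 from 4 to 16 CPM and -0.03 from 16 CPM up. All the tested members lay below 16 CPM. In these ranges the members' medians were 0.54 (5 genes), 0.20 (13 genes) and 0.33 (5 genes), in rising order of level. The part of this lean at low levels in the members' values was not tested. The filter also mattered. Of the 23, 5 passed it with fewer than 3 control libraries above its minimum of 0.537 CPM, PCDHB8, PCDHB9, PCDHB16, PCDHGB4 and PCDHGA9. Each of these had more vitamin C than control libraries above the minimum. All but PCDHB16 are among the 5 members below 1 CPM. Their log2 fold changes there were 0.50 in PCDHB8, 0.77 in PCDHB9, 0.21 in PCDHGB4 and 0.62 in PCDHGA9. The median of 0.54 is the value of PCDHGB7, which had 3 control libraries above the minimum. The 18 members with 3 such control libraries had a median of 0.25. Without the filter, 34 of 45 members with a count had a positive log2 fold change. The median in that fit was 0.28 over the members and 0.01 over all genes, and the share of all genes above 0 was not counted. Members that failed the filter had DESeq2 log2 fold changes of both signs, such as -0.31 in PCDHB2 and 0.48 in PCDHGA2.

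**Figure D3:**
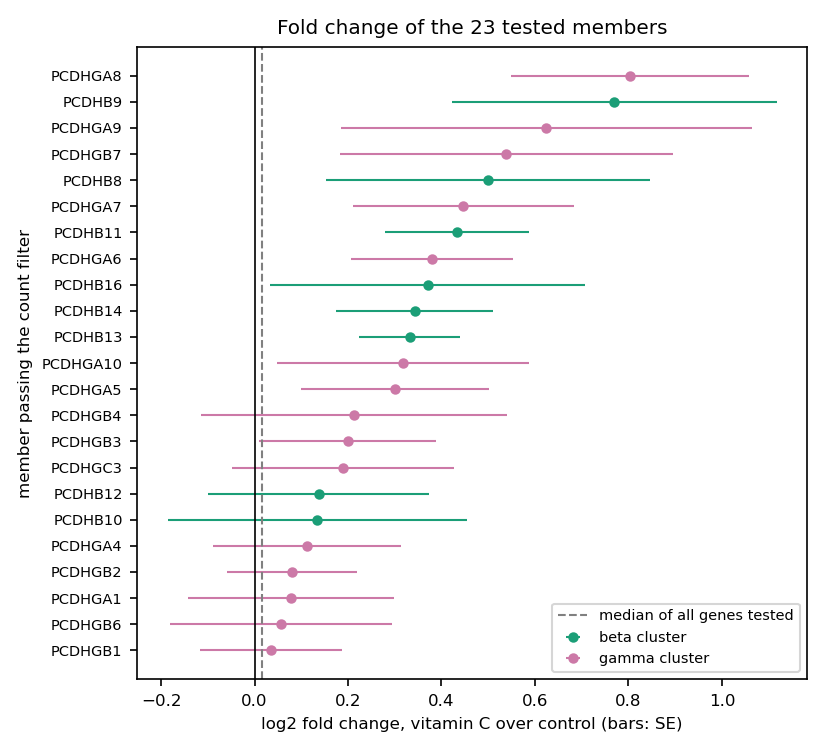
Vitamin C over control as log2 fold change (edgeR) for the 23 members that passed the count filter, with bars for the SE, sorted by size. All points lie right of 0, from 0.03 in PCDHGB1 to 0.80 in PCDHGA8, and none passed the adjusted threshold; the dashed line is the median of all genes tested, 0.02.

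**Figure D4:**
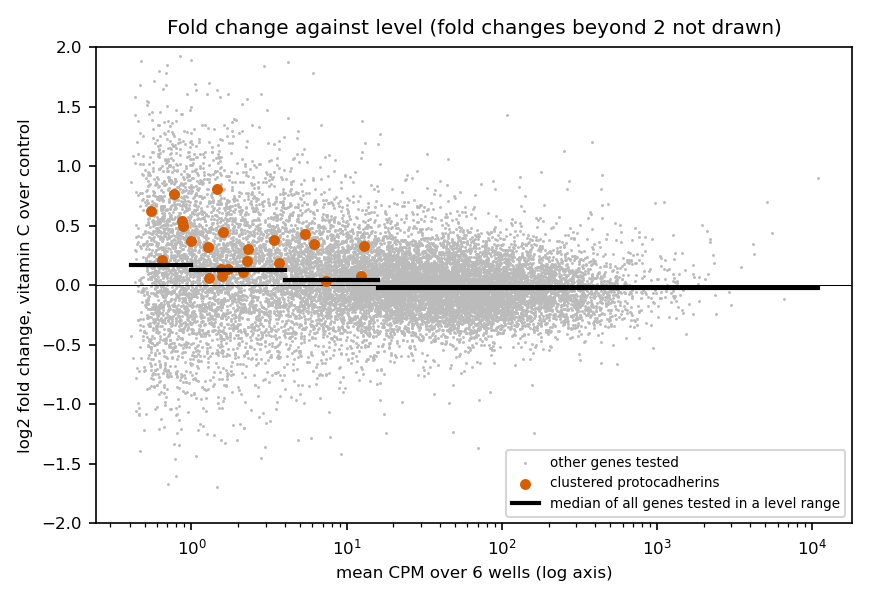
Vitamin C over control as log2 fold change against the mean CPM of 6 wells (log axis) for all genes tested, with members in orange and black bars for the median of all genes in 4 ranges of level. The medians of all genes fall with the level, 0.17 below 1 CPM and -0.03 from 16 CPM up, and every orange point lies above 0.

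In 7 of the 23 tested members (30.4%) every vitamin C well lay above every control well, against 15.7% of all genes tested, and in 0 members every vitamin C well lay below, against 16.6%. The 7 were PCDHB11, PCDHB13, PCDHGA5, PCDHGA6, PCDHGA7, PCDHGA8 and PCDHGB3, and the count was 7 also with upper-quartile and with DESeq2 factors. By level range, 0 of the 5 members below 1 CPM (15.8% of all genes there), 5 of the 13 members from 1 to 4 CPM (17.4% of all genes there) and 2 of the 5 from 4 to 16 CPM (18.3% of all genes) were separated in this way. Among the 30 untested members 3 were separated and higher, PCDHB5 (single counts), PCDHGA2 and PCDHGB5, and 0 lower. Of the 30, 22 had any count, and of all untested genes with a count 4.52% were separated and higher and 2.15% lower.

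Of the 4 beta genes with the highest CPM, 2 were separated between the groups, and none passed the test. PCDHB13, the member with the most counts (1385) and the smallest SE, was at 13.6, 14.1 and 15.7 CPM in vitamin C wells, against 11.8, 11.8 and 11.0 CPM in control wells. Every vitamin C well was higher, with a gap between the groups wider than the range of the control wells but narrower than that of the vitamin C wells. The log2 fold change was 0.33 (SE 0.11, edgeR adjusted p = 0.0802), and adjusted p ranged from 0.0589 to 0.185 over the alternatives. PCDHB11, from the same run of genes, was at 5.71, 6.01 and 6.83 CPM in vitamin C wells and at 4.38, 5.15 and 4.23 CPM in control wells. Here too the groups did not overlap, and the log2 fold change was 0.43 (SE 0.15, edgeR adjusted p = 0.0992).

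PCDHB14 was at 7.71, 6.16 and 6.88 CPM in vitamin C wells, against 4.67, 6.57 and 5.02 CPM in control wells. Control 2 lay above vitamin C 2, so the groups overlapped (log2 fold change 0.34, SE 0.17, edgeR adjusted p = 0.211). PCDHB12, between PCDHB11 and PCDHB13 on the chromosome, was at 1.93, 1.74 and 1.71 CPM in vitamin C wells and at 2.05, 1.46 and 1.39 CPM in control wells. Its highest well was a control, and the log2 fold change was 0.14 (SE 0.24, edgeR adjusted p = 0.744), with values from 0.033 without control 3 to 0.32 without control 1. PCDHB10 was at 1.26, 1.38 and 2.21 CPM in vitamin C wells and at 1.31, 2.13 and 1.04 CPM in control wells, with 1 high well in each group. Adjacent genes of this run therefore had log2 fold changes between 0.13 and 0.43, and the differences between them were not tested.

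PCDHB9, singled out after its values were seen, had the highest log2 fold change of the beta genes. It was at 1.11, 0.724 and 1.10 CPM in vitamin C wells and at 0.455, 0.799 and 0.448 CPM in control wells. Vitamin C 2 lay below control 2, so the groups overlapped, and the value of 0.77 (SE 0.35, edgeR adjusted p = 0.178) rests on 82 counts in all. DESeq2 gave this gene no adjusted p.

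The 2 gamma genes with the highest levels showed no separation of the groups. PCDHGB2 was at 15.3, 10.5 and 12.1 CPM in vitamin C wells and at 11.3, 12.5 and 12.0 CPM in control wells. Vitamin C 1 was the highest well and vitamin C 2 the lowest, and the log2 fold change was 0.08 (SE 0.14, edgeR adjusted p = 0.747), or -0.075 without vitamin C 1. PCDHGB1 was at 8.23, 7.61 and 6.67 CPM in vitamin C wells and at 7.80, 7.99 and 6.07 CPM in control wells, and the groups overlapped throughout. Its log2 difference was 0.03 (SE 0.15, edgeR adjusted p = 0.909), and it was -0.037 without vitamin C 1 and -0.086 without control 3.

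The C-type genes are the members that neurons use most evenly. PCDHGC3, which in mice binds the Wnt pathway scaffold Axin1, was the one C-type gene with more than a few counts in these cells. It was at 3.63, 4.56 and 3.56 CPM in vitamin C wells and at 2.16, 3.73 and 4.28 CPM in control wells. Control 1 was low and control 3 high, so that the spread of the controls covered most of the vitamin C values, and the log2 fold change was 0.19 (SE 0.24, edgeR adjusted p = 0.641), or -0.038 without control 1. PCDHGC4, which supports neuron survival in mice, and PCDHGC5 had 16 and 15 counts over all libraries, and PCDHAC1 and PCDHAC2 had 3 and 2. High CpG content was thus found at the promoters of a C-type gene in use, PCDHGC3, and of others with next to no counts.

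PCDHGA6, the gamma A gene with the highest CPM, was at 4.23, 4.06 and 3.36 CPM in vitamin C wells, against 3.02, 2.93 and 2.93 CPM in control wells. The control wells lay close together and every vitamin C well was higher (log2 fold change 0.38, SE 0.17, edgeR adjusted p = 0.181). PCDHGA8, singled out after its values were seen, was at 2.00, 1.96 and 1.66 CPM in vitamin C wells and at 0.797, 1.07 and 1.29 CPM in control wells. The groups did not overlap, and the log2 difference of 0.80 (SE 0.25, edgeR adjusted p = 0.072) was the highest of all tested members, on 151 counts in all. Over the alternatives its adjusted p ranged from 0.0678 to 0.221 and its log2 fold change from 0.65 to 0.97.

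**Figure D5:**
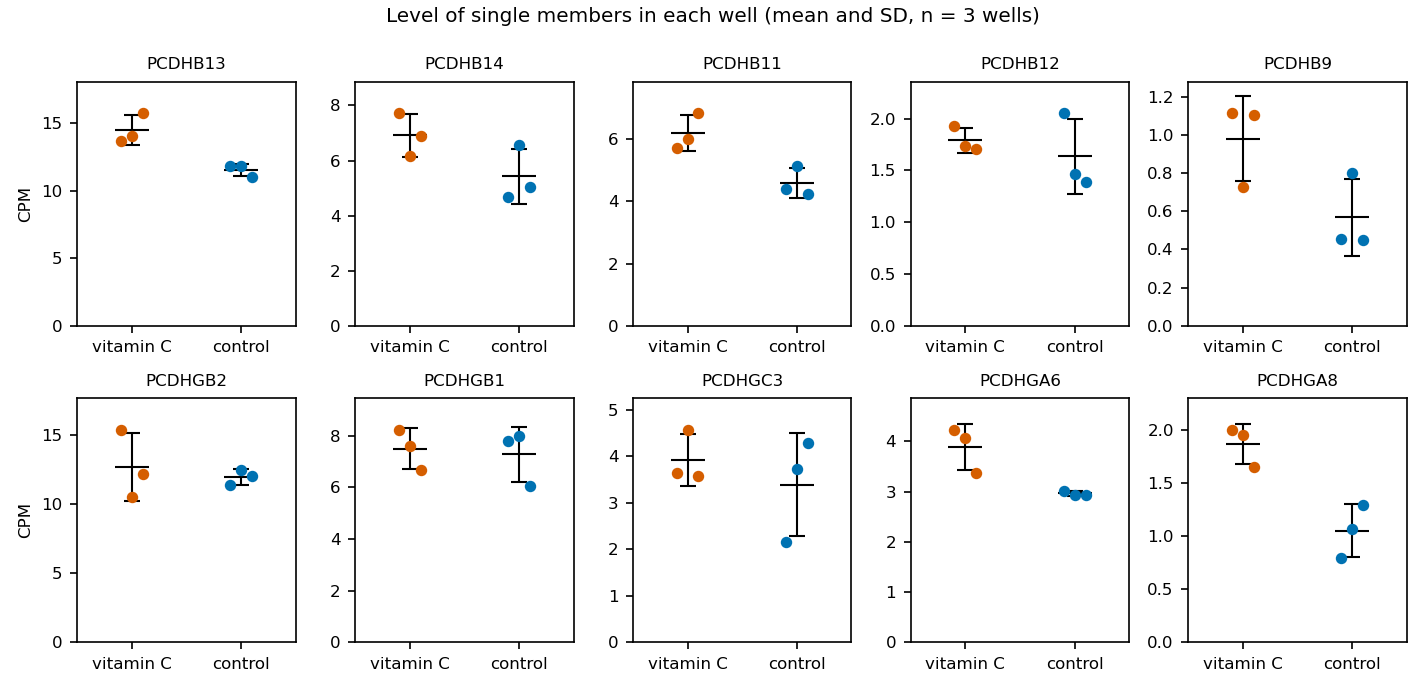
CPM of 10 members in each well, vitamin C left and control right in each panel, with the mean and SD of 3 wells. The groups are apart in PCDHB13, PCDHB11, PCDHGA6 and PCDHGA8 and overlap in PCDHB14, PCDHB12, PCDHB9, PCDHGB2, PCDHGB1 and PCDHGC3.

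The other separated gamma genes, also singled out after their values were seen, had log2 fold changes between 0.20 and 0.45. PCDHGA7 was at 2.15, 1.74 and 1.66 CPM in vitamin C wells and at 1.37, 1.51 and 1.14 CPM in control wells (log2 fold change 0.45, SE 0.24). PCDHGA5 was at 2.45, 2.68 and 2.51 CPM in vitamin C wells and at 1.71, 2.35 and 2.09 CPM in control wells (log2 fold change 0.30, SE 0.20). PCDHGB3 was at 2.45, 2.61 and 2.26 CPM in vitamin C wells and at 2.16, 2.09 and 2.09 CPM in control wells (log2 fold change 0.20, SE 0.19). The gap between the nearest wells of the groups was smaller than the range of either group in PCDHGA7 and PCDHGA5. In PCDHGB3 it was smaller than the range of the vitamin C wells. The remaining 9 tested members, 2 beta and 7 gamma genes, overlapped between the groups, and their log2 fold changes ran from 0.06 in PCDHGB6 to 0.62 in PCDHGA9, which had an SE of 0.44.

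Related genes were read beside the members. Of 13 listed protocadherins outside the clusters only PCDH1 had enough counts for a test, at 3.86, 2.97 and 4.07 CPM in vitamin C wells and at 3.53, 4.97 and 5.57 CPM in control wells, and the groups overlapped (log2 fold change -0.37, edgeR adjusted p = 0.269). Of 18 classical and type II cadherins 5 were tested, with 0 higher and 0 lower and a median of 0.20. The most abundant were CDH11, with a mean of 76.9 CPM and a log2 fold change of -0.03, and CDH24, with 12.5 CPM and 0.20. At an unadjusted p under 0.05, 1 cadherin was higher and 0 lower by edgeR, and DESeq2 called 0. That gene, CDH1, was at 3.78, 1.38 and 6.52 CPM in vitamin C wells and at 0.512, 1.95 and 2.24 CPM in control wells. The groups overlapped (log2 fold change 1.33, SE 0.50, edgeR adjusted p = 0.113).

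The machinery that reads these promoters was abundant. Of 14 genes for CTCF and cohesin all were tested, with 0 higher and 0 lower by edgeR and a median log2 fold change of 0.03. Unadjusted p values under 0.05 were found for 0 higher genes and 1 lower gene, and DESeq2 called 1, the cohesin subunit gene STAG2, lower (-0.23 by edgeR, edgeR adjusted p = 0.0745). CTCF, named after its values were seen, was at 88.7, 83.1 and 91.2 CPM in vitamin C wells and at 93.2, 87.0 and 100.1 CPM in control wells, which overlapped. The most abundant were PDS5A, with 613.6 CPM and a log2 fold change of 0.01, and RAD21, with 519.8 CPM and 0.13.

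Among 22 genes for DNA methylation and silencing at these clusters, edgeR called 2 higher and 1 lower and 19 did not pass, with a median of 0.05. DESeq2 called 1 higher, DNMT3A, and 3 lower, CBX3, CBX1 (adjusted p = 0.018), another heterochromatin protein, and TRIM28 (0.0235), a corepressor. At an unadjusted p under 0.05, 2 were higher and 4 lower by edgeR. DNMT3A, which adds methyl groups to new sites in DNA, was at 16.6, 15.7 and 15.4 CPM in vitamin C wells and at 9.39, 12.3 and 11.6 CPM in control wells (log2 fold change 0.51, SE 0.12, edgeR adjusted p = 0.0351). DNMT3B, which also methylates new sites, was at 13.7, 14.6 and 14.1 CPM in vitamin C wells and at 11.1, 9.54 and 11.2 CPM in control wells (log2 fold change 0.42, SE 0.11, edgeR adjusted p = 0.0482, DESeq2 adjusted p = 0.0692). Neither group of wells overlapped the other in these 2 genes. CBX3, a heterochromatin protein, fell, with 244.9, 217.5 and 210.3 CPM in vitamin C wells and 290.1, 267.1 and 279.6 CPM in control wells (log2 fold change -0.32, SE 0.08, edgeR adjusted p = 0.0396). These calls depended on single wells and settings, since an adjusted p under 0.05 was kept in 6 of 11 alternatives for DNMT3A, 2 of 11 for DNMT3B and 4 of 11 for CBX3, with adjusted p of up to 0.122, 0.177 and 0.136. Without control 1 none of the 3 passed, with adjusted p of 0.122, 0.122 and 0.136.

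Of 21 listed genes for the cleavage and signalling of protocadherins 19 were tested, with 0 higher, 1 lower and a median of -0.02. The one that fell was WASF3, a member of the WAVE family of actin regulators, to which protocadherins of the clusters can bind, with 8.23, 8.11 and 7.68 CPM in vitamin C wells and 13.8, 11.5 and 11.8 CPM in control wells (log2 fold change -0.62, SE 0.12, edgeR adjusted p = 0.0196). It did not pass without control 1 (adjusted p = 0.079) or control 2 (0.058). At an unadjusted p under 0.05, 1 gene of this list was higher and 3 were lower.

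The neighbourhood of the clusters contained genes of far higher level. Of 12 genes beside and between the clusters 11 were tested, with 0 higher and 0 lower by edgeR and 0 called by DESeq2, a median log2 fold change of 0.10, and 1 higher and 1 lower at an unadjusted p under 0.05. TAF7, a general transcription factor gene between the beta and gamma clusters, was at 362.0, 377.6 and 322.3 CPM in vitamin C wells and at 264.6, 286.8 and 325.1 CPM in control wells, with control 3 above vitamin C 3 (log2 fold change 0.28, edgeR adjusted p = 0.0849). DIAPH1, a formin downstream of the gamma cluster, had a mean of 190.9 CPM and a log2 fold change of 0.10 (edgeR adjusted p = 0.626).

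Markers of other cell types were measured in the same libraries, since protocadherins are used by neurons and other cells. The sum of 10 neuron markers was 12.0 to 18.9 CPM in vitamin C wells and 10.9 to 12.2 CPM in control wells, with STMN2, ELAVL4 and GRIN1 at 0 in every library. The highest sum was that of vitamin C 1, where TUBB3 was at 10.2 CPM, against 4.35 and 3.86 CPM in the other vitamin C wells. Of the 5 tested, GAD1 and SYT1 had log2 fold changes of -0.18 and -0.21. Those of MAP2, TUBB3 and SNAP25 were 0.70, 0.77 and 1.65. SNAP25, a synaptic protein in that list, was at 0.815, 0.942 and 1.20 CPM in vitamin C wells and at 0.399, 0.222 and 0.348 CPM in control wells (edgeR adjusted p = 0.0278). It was the only one of the 10 called, and its control wells all lay under the filter's minimum, so that it was tested only through its vitamin C wells. DESeq2 gave it no adjusted p, and it did not pass without vitamin C 3 (edgeR adjusted p = 0.0538), control 1 (0.0863), control 2 (0.106) or control 3 (0.0542). The sum of 3 endothelial markers was 2.03 to 2.22 CPM in vitamin C wells and 0.740 to 1.34 CPM in control wells. This sum was almost all PECAM1, with means of 2.04 CPM in vitamin C and 0.958 CPM in control wells. VWF and CDH5 had at most 2 counts in any library. Their means were not higher in vitamin C wells (0.0489 against 0.0859 CPM and 0.0489 against 0.0504 CPM). PECAM1 was called higher by edgeR (adjusted p = 0.0439) and not by DESeq2 (adjusted p = 0.0675). PECAM1 lost its edgeR call with any single library left out (adjusted p 0.0557 to 0.136). Fibroblast markers (3 genes, 1 at 0) summed to 12.5 to 14.4 CPM in vitamin C wells and 6.72 to 10.7 CPM in control wells, with 0 called by edgeR and 1 by DESeq2. That gene, PDGFRB, a growth factor receptor, was at 12.5, 11.5 and 13.3 CPM in vitamin C wells and at 5.86, 9.54 and 9.00 CPM in control wells (log2 fold change 0.60, edgeR adjusted p = 0.0514, DESeq2 adjusted p = 0.0244). The fibroblast sum was almost all PDGFRB. LUM, the other fibroblast marker tested, had means of 0.880 CPM in vitamin C and 0.936 CPM in control wells (log2 fold change -0.06), and the groups overlapped. DCN was at 0 in every library. Leukocyte markers (4 genes, 1 at 0) summed to 1.26 to 2.01 CPM in vitamin C wells and 0.683 to 1.39 CPM in control wells, with 0 called by edgeR or DESeq2 and a single gene tested. That gene, CD14, made up almost all of the sum, with means of 1.68 CPM in vitamin C and 0.907 CPM in control wells, and its groups overlapped. The part of these markers in the members' values was not tested.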

How the data were processed

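RNA from 3 vitamin C and 3 control wells was depleted of ribosomal RNA and sequenced. The submitters' processing notes name CASAVA 1.4, Trim Galore and STAR, and the build hg38; reads were trimmed before alignment. The files deposited by the authors hold raw, unnormalized counts, 1 file per library with 1 row per Ensembl gene. Neither the strand setting nor the Ensembl release is given in the sources used here, and reads of antisense or overlapping genes cannot be told apart. The 4 summary lines of each file (unmapped, multimapping, unassigned and ambiguous reads; 50.6% to 69.7% of read pairs) were left out of library sizes. A second deposited table repeated these counts and was not used.

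Symbols, positions and exons came from GENCODE 44, which held 56558 of the 60675 identifiers. Counts were tested in R 4.3.3 with edgeR 4.0.16 (TMM, filterByExpr with a minimum count of 10, quasi-likelihood test, Benjamini-Hochberg adjustment, threshold 0.05). The biological coefficient of variation was 9.40%. DESeq2 1.42.0 was an alternative, as were other size factors, no filter, a block for the replicate number, and each library left out. The fit was tested on simulated data. Replicates were distinct libraries, since the chi-square of their counts over its degrees of freedom was 4.54 to 21.5 in every pair. Promoter windows came from RefSeq, and those of the 47 matched genes equalled the hg38 sequence.

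The members and the lists were chosen with earlier results of these data known. Named genes are called members, filled up to 4 per cluster by mean CPM, and the C-type genes; in other lists, up to 4 called genes, or the 2 of highest CPM. PCDHB9, PCDHB10, PCDHGA8, PCDHGA7, PCDHGA5, PCDHGB3, CDH1, CTCF, STAG2, CBX1, TRIM28 and the markers named lie outside that rule and were named after their values were seen.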

Additional observations from a re-analysis of the deposited data

How the results depend on the processing

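The count of members called was 0 in each direction under every alternative: upper-quartile or DESeq2 factors, no filter, DESeq2, the replicate block, and each library left out. Of the members that each fit tested, all had a positive log2 fold change with either set of factors, by DESeq2 (17 members) and with the replicate block, 22 of 23 without vitamin C 3, 24 to 26 of the 26 or 27 tested without any other single library, and 34 of 45 without a filter. The members' median log2 fold change was 0.19 by DESeq2 and 0.28 to 0.36 otherwise. Leaving out 1 library gave -0.075 to 0.19 for PCDHGB2, -0.086 to 0.12 for PCDHGB1, -0.038 to 0.38 for PCDHGC3 and 0.033 to 0.32 for PCDHB12. Over all genes, 1080 were called, 2245 without a filter, and 128 (without control 1) to 1900 (without vitamin C 3) with 1 library left out. The members at an unadjusted p under 0.05 numbered 5, but 2 by DESeq2, 3 with the replicate block and 2 without control 3. Same-numbered wells did not deviate together (correlations -0.016, -0.0556 and -0.0452, against -0.0482 to 0.107 between wells of different number). No pairing by number was seen, but 3 wells per group cannot exclude one. The replicate block called 731 genes and 0 members. With the replicate block DNMT3B (adjusted p = 0.0785), CBX3 (0.0622) and PECAM1 (0.0575) did not pass. Depth limits the alpha cluster and the 30 untested members, none with more than 13 counts in a library.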

Other observations

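Pseudogenes of the clusters, which the members leave out, also had counts in these libraries, and they were looked up with their values in view. PCDHGB8P had 11, 6 and 7 counts in vitamin C wells (0.815, 0.435 and 0.351 CPM) and 3, 3 and 3 counts in control wells (0.171, 0.133 and 0.149 CPM), so that every vitamin C well lay above every control well. PCDHGB9P had 6, 6 and 8 counts in vitamin C wells and 2, 5 and 7 counts in control wells, which overlapped. Only in CPM did its groups not overlap (0.445, 0.435 and 0.402 against 0.114, 0.222 and 0.348). PCDHB18P had 8, 5 and 8 counts in vitamin C wells and 3, 11 and 3 in control wells, and PCDHB19P had 8, 6 and 2 counts in vitamin C wells and 7, 3 and 2 in control wells. Both overlapped between the groups. PCDHB17P had 1 count in vitamin C wells and 2 in control wells, and PCDHA14 had none. All 6 fell under the count filter and were not tested. Of all untested genes with a count, 4.52% were separated in CPM and higher in vitamin C wells and 2.15% lower.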
